A study of Mus musculus with 4 samples.

Results

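The genes described here are the metallothioneins Mt1 and Mt2, the metal-sensing transcription factor Mtf1, the zinc exporter Slc30a1 and the zinc importers Slc39a10 and Slc39a6, in mouse embryonic stem cells. They were taken from the series' expression table by gene name, and all 6 were found among its 22266 genes. Poly(A) RNA was sequenced from the line CBX2fl/fl-HaloTag, female PGK12.1 cells with floxed Cbx2 carrying a HaloTag, grown on gelatin in medium with serum and leukemia inhibitor factor. CBX2 is a chromodomain subunit of Polycomb repressive complex 1. The EtOH group (n = 2 libraries, day 0) received ethanol, is labelled Wildtype and serves as the control. The OHT group (n = 2 libraries, day 2) received 1.0 µM 4-Hydroxytamoxifen for 48 hours to delete Cbx2 and is labelled Knockout. Every library comes from the same knock-in line, and the labels name neither the recombinase nor whether replicates are separate cultures. The p-values therefore measure only how these libraries spread, which may be technical. Drug, time in culture and deletion differ together between the groups and cannot be told apart.

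Zinc is held at a low free level in the cell by a small circuit. MTF1 binds zinc through its zinc fingers and, when zinc rises, binds metal response elements in DNA and switches on the metallothioneins, which are short cysteine-rich proteins that bind zinc and copper, together with SLC30A1, which carries zinc out of the cell across the plasma membrane. SLC39A10 and SLC39A6 are closely related importers that carry zinc into the cytosol, and Slc39a10 is known to be held down by MTF1. Metallothionein genes also respond to oxidative stress and glucocorticoids.

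In these libraries the metallothioneins stood higher and Mtf1 lower in both OHT libraries than in both EtOH libraries. The exporter and both importers overlapped between the groups. No member passed the threshold after adjustment over all genes.

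The metallothioneins lie side by side on GRCm38 chromosome 8 on the plus strand, with Mt2 (ENSMUSG00000031762.8) at 94172664 to 94173568 and Mt1 (ENSMUSG00000031765.9) at 94179082 to 94180327, 5513 bp apart. Mt4 (94137197 to 94139031) and Mt3 (94152607 to 94154146) precede them on the same strand. In GENCODE mouse release 21 the principal transcripts of Mt1 and Mt2 have 3 exons each and 183 coding bases each, of which 79.2% are identical between the pair. Both annotated leaders, the exonic bases before the start codon, hold a TATA hexamer with metal response cores ahead of it. The sites are shown because they are the elements through which MTF1 is known to act on these genes. Capitals mark the core (TGCACNC or TGCGCNC on either strand, so that an antisense core is printed as its reverse complement) or the hexamer TATAAA, and all are written 5′ to 3′ on the plus strand of GRCm38:

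Mt2 core 1 (chr8:94172670-94172688, antisense): aagggcGTGTGCAggcggc
Mt2 core 2 (chr8:94172689-94172707, antisense): gggggcGCGTGCAtggtgc
Mt2 core 3 (chr8:94172723-94172741, sense): agctttTGCGCTCgaccca
Mt2 TATA (chr8:94172741-94172770): aatactctccgcTATAAAggtcgcgctccg
Mt1 core 1 (chr8:94179085-94179103, sense): gagctcTGCACTCcgcccg
Mt1 core 2 (chr8:94179103-94179121, sense): gaaaagTGCGCTCggctct
Mt1 core 3 (chr8:94179167-94179185, antisense): cctgctGGGTGCAaaccct
Mt1 core 4 (chr8:94179181-94179199, sense): acccttTGCGCCCggactc
Mt1 TATA (chr8:94179198-94179227): tcgtccaacgacTATAAAgagggcaggctg

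The layout is alike in the pair. The TATA hexamer begins 101 bases before the start codon in Mt1 and 95 in Mt2, and all 4 cores of Mt1 and all 3 of Mt2 lie ahead of it, starting 23 to 119 bases before it in Mt1 and 24 to 77 in Mt2. Among 21596 coding genes, 19.7% hold at least 1 core in the first 180 bases of their principal transcript, 0.685% hold at least 3, and 2.68% hold the TATA hexamer. At least 3 cores together with the hexamer occur in 3 genes (0.0139%), which are Mt1, Mt2 and Mt3. This share depends on where the starts are drawn. In Mt1 and Mt2 the 180 bases begin ahead of the TATA element, while bases ahead of other genes' annotated starts do not enter this share. Over the same 180 bases Slc30a1 holds 1 core, and Mtf1, Slc39a10 and Slc39a6 hold none. A match describes letters and not a bound site. The annotated first base lies 128 bases before the hexamer in Mt1 and 89 in Mt2, so the transcripts used to compute length-corrected values may include bases ahead of the TATA element. How the authors' own annotation draws these starts is not given in the sources used here.

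**Figure D1:**
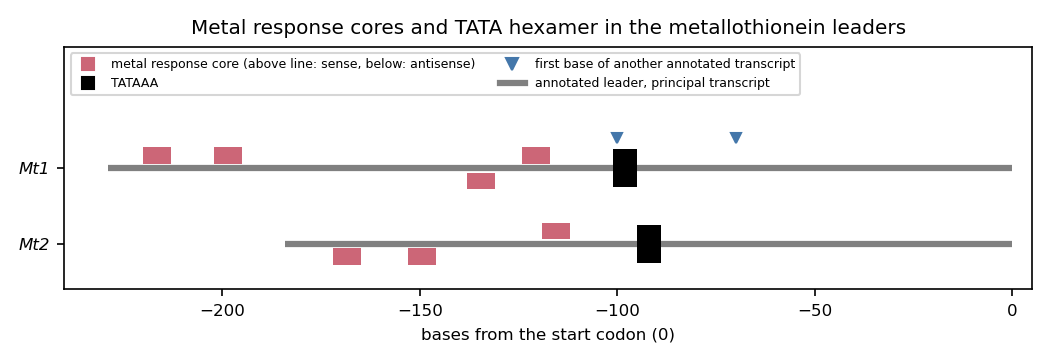
Positions of metal response cores and the TATA hexamer in the annotated leaders of Mt1 and Mt2, in bases from the start codon (x axis). The 4 cores of Mt1 and the 3 of Mt2 all lie to the left of the hexamer, and 2 other annotated transcripts of Mt1 (triangles) begin to the right of its first base.

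Ahead of RefSeq starts, windows from the RefSeq promoter table (GRCm38.p6) are reported for 5 of the 6 members, with 2 for Slc39a10. Slc39a6 was left out of this listing, so its upstream cores are not given here. The Mtf1 window (124802299 to 124802548) and 1 Slc39a10 window (46853619 to 46853868) lie inside the GENCODE spans of those genes. Over the 250 bases before each RefSeq start, Mt2 holds 3 cores, Mt1 and Slc30a1 hold 1 each, and Mtf1 and both Slc39a10 windows hold none. Of 32817 such windows, 21.4% hold at least 1 core and 1.26% at least 3. A TATA hexamer beginning 21 to 40 bases before the start occurs in 2.00% of them, and in neither the Mt1 nor the Mt2 window. The windows of Mt2 and of Slc30a1 (trimmed to end before its first GENCODE base) are given because Mt2 holds the most cores of these windows and Slc30a1 is the transporter among MTF1's textbook targets, with the cores in capitals, plus strand:

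Mt2 upstream (chr8:94172368-94172617): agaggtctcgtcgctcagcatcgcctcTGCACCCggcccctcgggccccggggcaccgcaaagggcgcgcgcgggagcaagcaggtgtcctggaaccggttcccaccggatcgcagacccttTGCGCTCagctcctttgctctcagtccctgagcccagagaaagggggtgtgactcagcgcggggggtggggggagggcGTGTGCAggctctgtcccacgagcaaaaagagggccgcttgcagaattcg
Slc30a1 upstream (chr1:191906531-191906766): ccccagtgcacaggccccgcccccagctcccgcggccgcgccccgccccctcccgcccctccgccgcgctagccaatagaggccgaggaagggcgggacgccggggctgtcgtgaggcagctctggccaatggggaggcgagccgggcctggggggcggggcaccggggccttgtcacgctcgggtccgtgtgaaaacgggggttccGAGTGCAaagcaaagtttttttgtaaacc

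Values are the authors' TPM (transcripts per 1000000), a length-corrected share in which every library has the same total, so library depth cannot be read from it and no counting error was computed. Fold changes are of log2(TPM + 1), which understates the change of low genes, and were tested with limma, two-sided, over the 12029 genes whose mean reached 1 TPM. All 6 members passed that filter. Over those genes 5 had a Benjamini-Hochberg adjusted p under 0.05 (0.0416%) and the median log2 fold change was 0.02. Cbx2, the deleted gene, read 2.29 and 2.71 TPM under EtOH against 0.749 and 1.14 under OHT, in the labelled direction. It did not pass the threshold either (log2 fold change -0.85; limma adjusted p = 0.265). Embryonic stem cell markers were abundant in every library (8 of 8 tested, 6 above and 1 below in both OHT libraries where 23.1% and 19.4% of all genes were, summed 9480 to 9564 TPM with EtOH and 11109 to 12420 with OHT). Most of the difference in that sum came from Dppa5a, named after its values were seen, at 4733 and 4612 TPM under EtOH against 7089 and 5623 under OHT. Summed over their lists, 8 fibroblast markers read 6.28 to 7.32 TPM with EtOH and 8.69 to 12.8 with OHT, 10 endoderm markers 10.1 to 10.9 and 11.8 to 16.6, and 6 trophoblast markers 44.1 to 45.6 and 42.1 to 49.4. The largest entries, named after their values were seen, were Thy1, Hnf4a and Tfap2c in turn. Thy1 read 6.41 and 5.43 TPM under EtOH against 7.64 and 10.9 under OHT, and Hnf4a 3.29 and 2.68 against 5.15 and 8.79. Of the endoderm list, Gata4 and Sox17 were also higher in both OHT libraries, and Sox7, Foxa2, Afp and Amn lower. Postn and Ttr were listed at 0 in every library, and the part of any of these in the results was not tested. In bulk RNA, fewer cells of a type and less RNA per cell cannot be told apart.

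Mtf1 (ENSMUSG00000028890.14, chromosome 4, 124802104 to 124849800, plus strand), the zinc sensor, was read at 11.96 and 12.24 TPM in EtOH replicates 1 and 2, and at 8.11 and 9.25 TPM in OHT replicates 1 and 2. The groups were separate, OHT being the lower, with a mean of 12.1 ± 0.203 TPM against 8.68 ± 0.808 TPM (SD, n = 2 each). The log2 fold change was -0.44 (SE 0.17, 95% interval -0.85 to -0.03), and its limma adjusted p was 0.450, so it did not pass. Its unadjusted p in limma was 0.0400, and 4.46% of all genes tested were lower at an unadjusted p under 0.05. The annotated 1110065P20Rik overlaps the 3′ end of Mtf1 on the opposite strand and read 9.92 and 9.50 TPM under EtOH against 9.27 and 6.48 under OHT. The labels' library kit is not stated to keep strand, so reads of that overlap cannot be told apart.

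Mt1 had the smallest p of the 6 genes. Its 181 and 179 TPM under EtOH compared with 254 and 231 TPM under OHT. The OHT pair was the higher, without overlap, and the gap between the groups was wider than the gap within either. The mean went from 179.96 ± 2.06 TPM to 242 ± 16.6 TPM (SD, n = 2 each), a ratio of 1.35. The log2 fold change of 0.43 (SE 0.10, 95% interval 0.19 to 0.66) had a limma adjusted p of 0.267 and an unadjusted p of 0.00446. Of the 12029 genes, 197 had a smaller p and 804 a larger log2 fold change. Without 1 of the OHT libraries Mt1 passed (limma adjusted p = 0.0130 without OHT replicate 1 and 0.00435 without OHT replicate 2), in fits whose replicate spread comes from the close EtOH pair, with the lone OHT library assumed to vary alike. Without EtOH replicate 1 or 2 the limma adjusted p was 1.00, and over the other alternatives it ranged from 0.00367 to 0.376.

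Mt2 was the most abundant of the 6 and ranked 207 of all genes by mean TPM, with Mt1 at rank 707. It was read at 657 and 613 TPM under EtOH against 776 and 690 under OHT. The groups did not overlap, but OHT replicate 2 lay closer to EtOH replicate 1 than to OHT replicate 1. The mean went from 635 ± 31.3 TPM to 733 ± 60.6 TPM (SD, n = 2 each), 15.4% higher. The log2 fold change was 0.20 (SE 0.10, 95% interval -0.03 to 0.44; limma adjusted p = 0.535), so neither no change nor a rise of about the size seen for Mt1 lies outside its interval. It passed without OHT replicate 2 (limma adjusted p = 0.0166, log2 fold change 0.29), against a range of 0.0547 to 0.700 over the alternatives that keep all libraries. The noncoding Gm45774 overlaps Mt2 on the opposite strand and is not analysed here.

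Together Mt1 and Mt2 made 839 and 792 TPM under EtOH against 1030 and 921 under OHT. The sum had a log2 fold change of 0.26 (SE 0.09) and a limma adjusted p of 0.433. On this length-corrected scale Mt2 exceeded Mt1 by 3.62 and 3.44 times in the EtOH libraries and by 3.05 and 2.99 times in the OHT libraries. The ratio was lower in both OHT libraries, so Mt1 made 21.6% and 22.5% of the pair with EtOH and 24.7% and 25.0% with OHT. That difference between the pair was not tested. No 31-base word of the Mt1 transcripts occurs in the transcripts of another gene on the sense strand, and 0.524% of those of Mt2 do (all in Pip5k1a). Per Mtf1 TPM, the summed metallothioneins stood at 70.2 and 64.7 with EtOH and at 127 and 99.5 with OHT.

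Slc30a1 (ENSMUSG00000037434.8, chromosome 1, 191906767 to 191913247, plus strand), the exporter and a textbook MTF1 target, was read at 13.6 and 20.04 TPM under EtOH against 14.0 and 16.1 under OHT. The OHT libraries fell inside the EtOH range, and the EtOH pair was the wider one. Its log2 fold change was -0.13 (SE 0.22, 95% interval -0.66 to 0.40; limma adjusted p = 0.890). The sign rests on EtOH replicate 2, the highest library, since without it the log2 fold change was 0.13. The interval takes in a fall of the size seen for Mtf1 and rises of up to 0.40, so such changes were not detectable with these libraries. The gene overlaps 1700034H15Rik on the opposite strand at its 5′ end, which is not analysed here.

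Slc39a10 (ENSMUSG00000025986.7, chromosome 1, 46807544 to 46892852, minus strand) was the most variable member. It was read at 21.6 and 25.6 TPM under EtOH against 17.9 and 30.5 under OHT. The OHT libraries took both the lowest and the highest place, on either side of the EtOH pair, so the mean log2 fold change of -0.01 (SE 0.26, 95% interval -0.65 to 0.63; limma adjusted p = 0.993) is the average of -0.38 for OHT replicate 1 and 0.36 for OHT replicate 2 relative to the control mean. Leaving out OHT replicate 1 therefore turned the sign. Of the 31-base words of its transcripts, 1.62% occur in transcripts of other genes on the sense strand (72 of these 98 words in Gm6801). The annotated Gm28151 and Gm37393 overlap Slc39a10 on the same strand and are not analysed here.

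Slc39a6 (ENSMUSG00000024270.12, chromosome 18, 24579881 to 24603817, minus strand), the partner importer, behaved alike on a smaller scale. It was read at 13.8 and 14.7 TPM under EtOH against 12.5 and 15.2 under OHT, again with the OHT libraries outside the EtOH pair on both sides. The log2 fold change was -0.05 (SE 0.17, 95% interval -0.46 to 0.37; limma adjusted p = 0.953), and it was 0.08 without OHT replicate 1. Elp2 overlaps its 5′ end on the opposite strand and is the more abundant of the pair, at 69.4 and 72.5 TPM under EtOH against 67.0 and 76.8 under OHT.

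**Figure D2:**
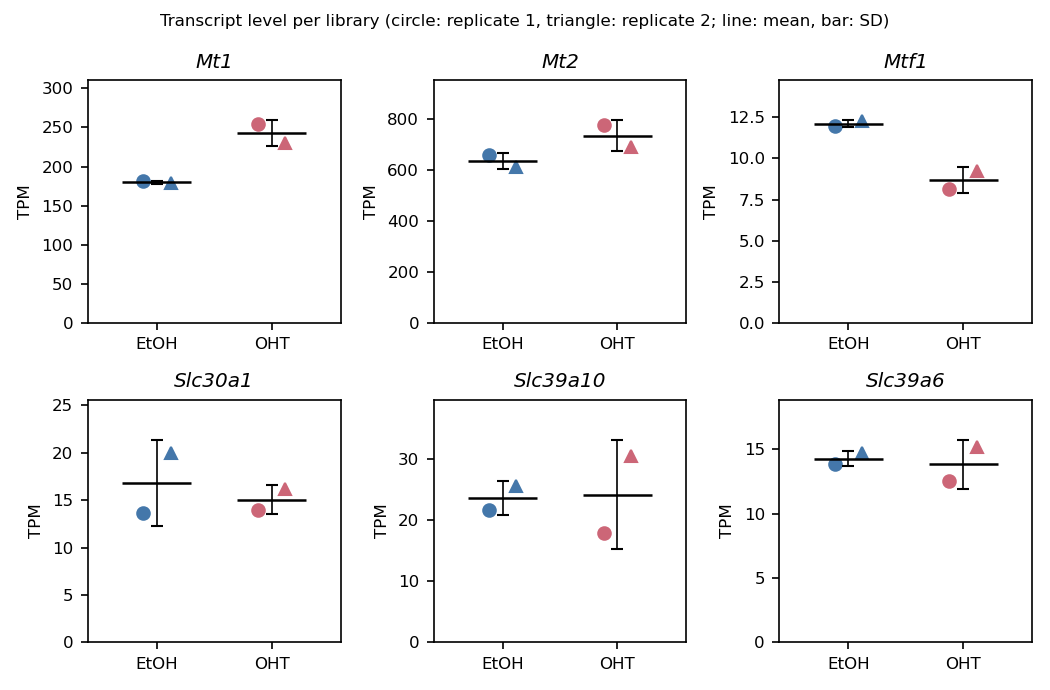
TPM of each member (y axes from 0) in the 2 EtOH and 2 OHT libraries; circles are replicate 1, triangles replicate 2, lines the group mean and bars the SD. Mt1 and Mt2 lie higher and Mtf1 lower in both OHT libraries, while Slc30a1, Slc39a10 and Slc39a6 overlap.

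Counted over the 6 members, 2 lay above and 1 below in both OHT libraries. Over all genes tested 23.1% lay above and 19.4% below in this way (42.4% in either direction), so 3 of 6 is near the background. At an unadjusted p under 0.05 stood 2 members, Mt1 as higher and Mtf1 as lower, where 6.02% of all genes were higher and 4.46% lower at that level (10.5% in all). The difference between these shares was not tested.

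**Figure D3:**
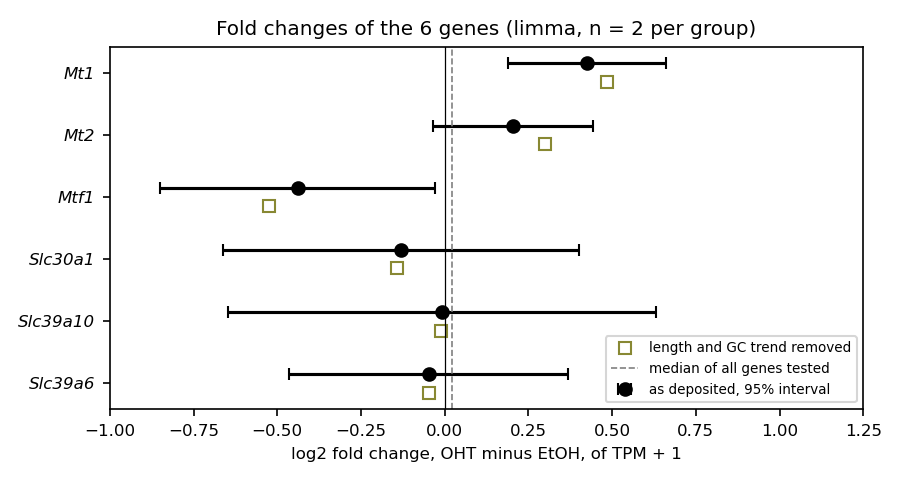
Log2 fold change of TPM + 1 (x axis, OHT minus EtOH) for the 6 members; black points with bars are limma estimates and their 95% intervals, open squares the values after taking out the trend of every library on transcript length and GC content, and the dashed line the median of all genes at 0.02. The intervals of Mt1 and Mtf1 lie on opposite sides of 0, and those of the others cross it.

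Transcript length moved with the differences between replicates, and the members sit at both ends of it. The principal transcripts of Mt1 and Mt2 are 549 and 511 bases long, those of Slc39a6, Slc30a1, Slc39a10 and Mtf1 3882, 5244, 5498 and 7631, and the median of the genes tested is 2885. Across 12016 genes (genes are no replicates) the difference between OHT replicates 1 and 2 followed log2 length with Pearson r = -0.55 and Spearman rho = -0.61, and that between EtOH replicates with r = -0.28 and rho = -0.38. The OHT minus EtOH difference followed length weakly and with the other sign (r = 0.13 and rho = 0.13), longer transcripts being higher with OHT, whereas the short Mt1 and Mt2 lay higher and the long Mtf1 lower. The 2 short members read higher in replicate 1 than in replicate 2 of both groups, and the 4 long members read lower in replicate 1. With the trend of every library on length and GC content taken out, the OHT libraries read 228 and 268 TPM for Mt1 (EtOH 172 and 180), 709 and 808 TPM for Mt2 (EtOH 619 and 609) and 8.89 and 7.90 TPM for Mtf1 (EtOH 12.8 and 12.2). The groups did not overlap for any of these 3 after the correction, and the log2 fold changes were 0.49, 0.30 and -0.52 (limma adjusted p = 0.148, 0.242 and 0.222). OHT replicate 2 was then the higher of the OHT pair for both metallothioneins, the reverse of the deposited values. Only 1.34% of the genes tested have a principal transcript no longer than that of Mt1, so the trend there rests on a small share of genes. Whether it removes too much at that length was not tested. Slc39a10 still spread widely, at 19.4 and 28.2 TPM with OHT.

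Of 24 other zinc transporters and metallothioneins listed, 17 were expressed enough to test. None passed in limma, none had an unadjusted p under 0.05, and the median log2 fold change was 0.02, as over all genes. In both OHT libraries 5 of the 17 lay above (23.1% of all genes did) and 2 below (19.4% of all genes did). The 2 below were the remaining metallothioneins. Mt3, named here after its values were seen, was read at 5.97 and 7.48 TPM under EtOH against 5.42 and 5.67 under OHT. Its log2 fold change was -0.23 (SE 0.19). Like Mt1 and Mt2, Mt3 holds at least 3 cores and the TATA hexamer in the first bases of its principal transcript, as counted above. Where they lie relative to its start codon and to each other was not examined. Mt4 was read at 1.75 and 2.81 TPM under EtOH against 1.62 and 1.51 under OHT (-0.34, SE 0.21). Mt3 and Mt4 thus lay opposite to their neighbours Mt1 and Mt2, and neither differed past the threshold (limma adjusted p = 0.736 and 0.652). Both read far lower than Mt1 and Mt2. For each, the EtOH replicates lay farther apart than EtOH replicate 1 and the nearest OHT library.

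The 5 above were Slc30a3, Slc39a4, Slc30a9, Slc39a3 and Slc39a13, with log2 fold changes of 0.34, 0.25, 0.22, 0.23 and 0.22. Slc30a3, a vesicular zinc transporter, had the smallest p, with 2.54 and 3.29 TPM under EtOH against 4.10 and 3.78 under OHT (log2 fold change 0.34, SE 0.19; limma adjusted p = 0.600). Slc39a4, a plasma membrane importer, read 15.5 and 15.9 TPM under EtOH against 17.8 and 19.96 under OHT (0.25, SE 0.15). The most abundant transporter, named after its level was seen, was Slc39a7, which releases zinc from the endoplasmic reticulum, at 81.5 and 80.7 TPM under EtOH against 74.5 and 89.6 under OHT, overlapping between groups. Of the 17, 15 read higher in OHT replicate 2 than in OHT replicate 1, as did 76.1% of all genes, and the 2 exceptions were Mt4 and Slc30a3. The list's median was -0.12 without OHT replicate 2 and 0.19 without OHT replicate 1, where the median of all genes was -0.09 and 0.14. Slc30a8 and Slc39a12 were listed at 0 in every library.

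**Figure D4:**
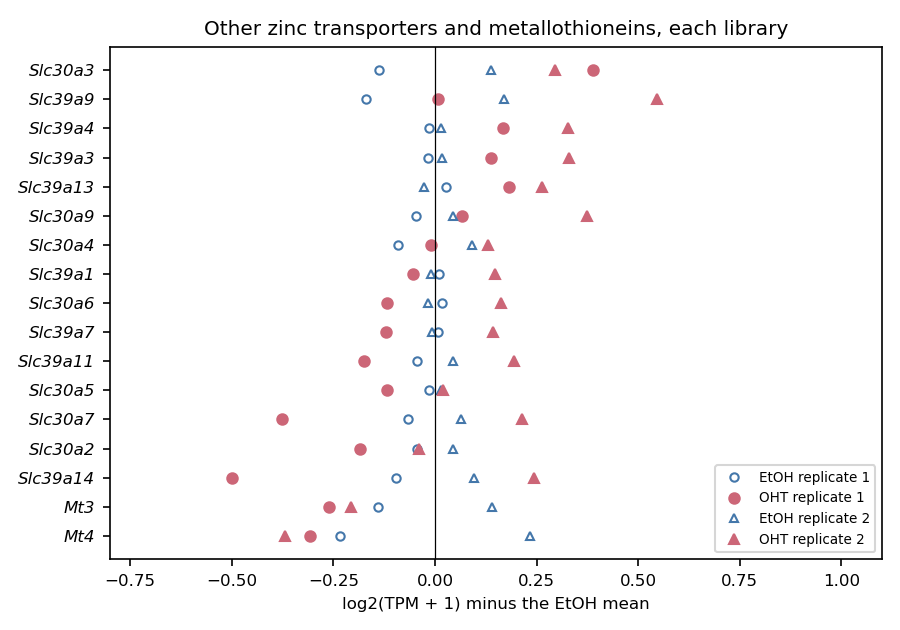
Each library's log2(TPM + 1) minus the EtOH mean (x axis) for the 17 other zinc genes tested, ordered by fold change; open symbols are EtOH, filled symbols OHT, circles replicate 1 and triangles replicate 2. The OHT circles lie left of the OHT triangles for 15 genes, and Mt3 and Mt4 lie below 0 in both OHT libraries.

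Neighbouring pathways gave no call either, and their counts above and below in both OHT libraries stand beside 23.1% above and 19.4% below over all genes. Of 8 further genes known as MTF1 targets, 7 were tested (median log2 fold change -0.01, 2 above and 2 below in both OHT libraries), with Selenow, a small selenoprotein, at 169 and 172 TPM under EtOH against 205 and 195 under OHT (0.23, SE 0.09; limma adjusted p = 0.470), Selenoh at -0.21 and Ndrg1 at -0.19. Of 10 glucocorticoid receptor and target genes, 9 were tested and 5 lay above and none below, with a median of 0.27. Dusp1, a MAP kinase phosphatase that many stimuli induce, read 13.4 and 15.1 TPM under EtOH against 20.9 and 25.1 under OHT (0.65, SE 0.17; limma adjusted p = 0.296), followed by Klf9 (0.27) and Nr3c1 itself (0.44). Of 14 oxidative stress genes 12 were tested (median 0.02, 4 above and 3 below), led by Srxn1, which reactivates peroxiredoxins, at 15.4 and 14.9 TPM under EtOH against 23.4 and 27.4 under OHT (0.71, SE 0.15; limma adjusted p = 0.265), with Prdx1 at -0.18 and Nfe2l2 at 0.30. Copper handling genes (10 of 12 tested, median 0.11, 1 above and 0 below) were led by Cox17 (0.27), Slc31a1 (0.21) and Atox1 (0.15). Iron handling genes (13 of 15 tested, median 0.00, 2 above and 2 below) were led by Ftl1 (-1.01, SE 0.12, limma adjusted p = 0.0995), then by Hjv (0.47) and Fbxl5 (-0.14). Ferritin light chain is known to have near-identical copies, whose part in the Ftl1 value was not tested. Slc39a1, Gclc and Slc40a1 each stand on 2 of these lists.

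By the distance between log2(TPM + 1) profiles centred over the 4 libraries, the genes most like Mt1 were Saysd1 (distance 0.023), Lgals3 (0.036) and Cgrrf1 (0.037). Lgals3, which encodes the lectin galectin-3, is the one of these at a level near that of Mt1, with 120.5 and 119.8 TPM under EtOH against 165 and 151 under OHT. Closest to Mt2 were Yipf2, Ufc1 and Ccdc51 (0.020 to 0.030), and closest to Mtf1 were Wdr61, Nap1l1 and Slc35b3 (0.022 to 0.043). Slc39a10 had Myo10, Nfrkb and Mgat5 (0.0078 to 0.017), and Slc39a6 had Slc12a4, Wasf1 and Pitpnb (0.0095 to 0.012). For Slc30a1 the nearest were Tes3-ps, Frmd4b and Pcgf5, farther off at 0.089 to 0.103. These distances rest on 4 libraries and are a description.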

How the data were processed

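Per the labels, 2 EtOH and 2 OHT samples, all labelled batch 2, were poly(A) selected and prepared with NEBNext kits. The authors deposited TPM per gene, made with Trim Galore and Salmon on GRCm38 (mm10), per the submitters' processing notes. No version or annotation release is known here. The table also has 2 columns of values that match no sample here, and these were not used. TPM were analysed as log2(TPM + 1) in limma 3.58.1 (R 4.3.3; mean-variance trend, 2 residual degrees of freedom), filter of a mean of at least 1 TPM, Benjamini-Hochberg over 12029 genes, threshold 0.05; the code was tested on simulated data. An exact permutation test of 2 against 2 cannot go below 0.333, so none was run. The Mt1 plus Mt2 sum was fitted as an added row. Positions, lengths and GC are of GENCODE release 21 principal transcripts (22213 of 22266 identifiers matched without version); promoters are RefSeq's. Similar transcripts were sought with blastn 2.17.0. The members and lists (other zinc genes, MTF1 targets, glucocorticoid, oxidative stress, copper, iron and cell markers) were chosen with earlier results of these data known. Named were all members, Cbx2, up to 6 zinc genes and 3 per other list with the smallest p, and the 3 nearest profiles to each member (predicted gene models left out). Alternatives were other pseudocounts, filters, scalings and moderation, a replicate block, leaving out each library, and taking out the trend of every library on length and GC (natural splines of 5 degrees of freedom each), also with the block.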

Additional observations from a re-analysis of the deposited data

How the results depend on the processing

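Outside the fits that leave out a library, all 72 fits of the 6 members (12 alternatives each) kept the direction, and 2 passed the threshold, both for Mt1. These were the replicate block (log2 fold change 0.43, limma adjusted p = 0.0224) and the block together with removal of the length and GC trend (0.49, limma adjusted p = 0.00367). The sum of Mt1 and Mt2 also passed with the block and trend removal together (0.33, limma adjusted p = 0.0173). The labels do not say that replicate numbers mark a shared culture. The same-numbered differences correlated across genes (Pearson r = 0.29, Spearman rho = 0.41). Both differences also followed transcript length with the same sign (Spearman rho = -0.38 with EtOH and -0.61 with OHT). The source of the correlation was not tested, and the design names no pairing. The block leaves 1 residual degree of freedom, and it raised the genes past the threshold from 5 to 474 (696 with trend removal). In both block fits and without EtOH replicate 1 or 2, limma took each gene's spread wholly from the mean-variance trend over all genes. No weight fell on the gene's own spread there. Genes past the threshold numbered 0 without a filter on low values (2228 at an unadjusted p under 0.05), 3 each with median of ratios scaling, quantile normalization and limma without trend, and 60 after removal of the length and GC trend. With 1 library left out they ranged from 34 to 2957: 46 and 34 without EtOH replicate 1 or 2, 2957 and 2478 without OHT replicate 1 or 2. In those fits the log2 fold change ranged from 0.36 to 0.50 for Mt1, 0.12 to 0.29 for Mt2, 0.18 to 0.34 for their sum, -0.52 to -0.35 for Mtf1, -0.39 to 0.13 for Slc30a1, -0.38 to 0.36 for Slc39a10 and -0.18 to 0.08 for Slc39a6. Sign turned for Slc30a1 without EtOH replicate 2 (0.13), for Slc39a10 without EtOH replicate 2 (0.11) or OHT replicate 1 (0.36), and for Slc39a6 without OHT replicate 1 (0.083); the cause was not tested. Mt1 and the sum passed without either OHT library, and Mt2 and Mtf1 without OHT replicate 2 (Mtf1: limma adjusted p = 0.0291). Other zinc genes past the threshold numbered 0 to 1: Slc30a9 without OHT replicate 1 (0.38) and Slc39a14 without OHT replicate 2 (-0.50). TPM keep no depth, so what depth limits is unknown.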
